A study of Mus musculus with 11 samples.

Results

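The 32 genes described here build cholesterol and fatty acids or control that synthesis. They were chosen by symbol from a table of 37991 mouse genes, and where a symbol occurred more than once the row with the most counts was kept. The sterol arm held 17 enzymes and 6 regulators, and the fatty acid arm held 9 enzymes. For Hmgcs1, which makes HMG-CoA from acetyl-CoA, the table held 2 rows, both listed at 0 in all 11 libraries, so that 31 genes were measured. All 31 passed the expression filter in every comparison.

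RNA was sequenced from cells carrying green fluorescent protein (GFP), sorted from dissociated spinal cords of C57BL/6 Col1a1GFP mice. In this reporter strain GFP marks cells that use the collagen gene Col1a1. Of the sorted groups, 2 came from mice in which immune attack on myelin had been induced, known as experimental autoimmune encephalomyelitis (EAE), at 5 days (EAE D5, n = 3 libraries) or 10 days (EAE D10, n = 3) past symptom onset. Healthy mice of the same reporter strain gave the third (sorted control, n = 3). Homogenate of whole cord from healthy C57BL/6 mice without the reporter gave 2 further libraries of 1 cord each. The labels name no age. A sorted library is a pool of 2 to 3 cords, a biological replicate in the words of the submitters. The labels of the whole cord libraries repeat the sorting protocol, whereas the design text describes homogenate, and the design text was followed.

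Cholesterol is made from acetyl-CoA through mevalonate, isoprenoid diphosphates, squalene and lanosterol. Transcription of this pathway is driven by sterol regulatory element binding proteins (SREBPs), which are encoded by Srebf1 and Srebf2. The escort protein Scap carries them out of the endoplasmic reticulum when membrane sterol is low, and the Insig proteins hold Scap back when sterol is ample. Fatty acid synthesis starts from the same acetyl-CoA and is driven in large part by the SREBP isoforms of Srebf1. In the spinal cord, myelinating oligodendrocytes are known for high rates of both syntheses.

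Libraries held 7123291 to 12238751 counts. The summed level of 6 fibroblast markers, in counts scaled to library size after TMM normalisation (CPM), was 21626 to 28376 in sorted control, 33124 to 47143 at D5 and 30526 to 66215 at D10. The collagen genes Col1a1, Col1a2 and Col3a1 were called higher at D5, whereas Dcn (log2 fold change -1.05), Lum (-0.61) and Pdgfra (-0.53) were called lower. In the fit of healthy libraries this sum was 20351 to 26405 CPM in sorted control and 159 to 291 CPM in whole cord. Col1a1, whose reporter the sort used, is part of this sum. The sum of 7 mural cell markers was 2710 to 4977 CPM in sorted control and 145 to 248 CPM in whole cord. All 7 were called higher, against 26.9% of all genes. The sorted libraries thus carried fibroblast and mural markers. The leading principal component over the sorted libraries (48.8% of variance) placed D10 replicate 3 at 53.8, among the D5 libraries (51.9 to 59.2). The other D10 libraries, at 11.97 and 3.38, were nearer the controls (-81.6 to -78.0) than replicate 3 was, and D10 results are given with and without replicate 3 where it changes them.

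In sorted control the 2 arms differed in level. Per kilobase of exon, fatty acid enzymes had a median of 20.7 CPM in sorted control, between 0.963 for Acss2 and 85.6 for Scd2. Sterol enzymes had a median of 3.26 CPM per kilobase, between 1.52 for Acat2 and 10.7 for Pmvk. Scd2, a stearoyl-CoA desaturase that makes monounsaturated fatty acids, was the most abundant of the 31 genes per kilobase at every stage, with means of 85.6 ± 9.95 in sorted control, 67.9 at D5 and 89.1 at D10. Srebf1, at 35.7 ± 1.25, and Srebf2, at 30.4 ± 0.431 CPM per kilobase (SD, n = 3), stood among the 4 highest in sorted control.

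At D5, genes of both arms were lower than in sorted control, the sterol arm by more. Of 16 measured sterol enzymes, 8 fell and none rose, with all 16 estimates negative and a median log2 fold change of -0.97. Of 6 sterol regulators, 4 fell and 1 rose, with a median of -1.16. Of 9 fatty acid enzymes, 4 fell and none rose, with all 9 estimates negative and a median of -0.61. Over all 15972 genes tested the median was 0.00, and 10.7% were called lower and 13.2% higher. A call is an adjusted p under 0.05 in edgeR's quasi-likelihood test, with Benjamini-Hochberg adjustment over all genes tested. In 11 sterol enzymes, 5 regulators and 7 fatty acid enzymes every D5 library lay below every control library, which held for 19.1% of all genes. In 1 regulator every D5 library lay above every control library, against 22.8% of all genes.

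**Figure D1:**
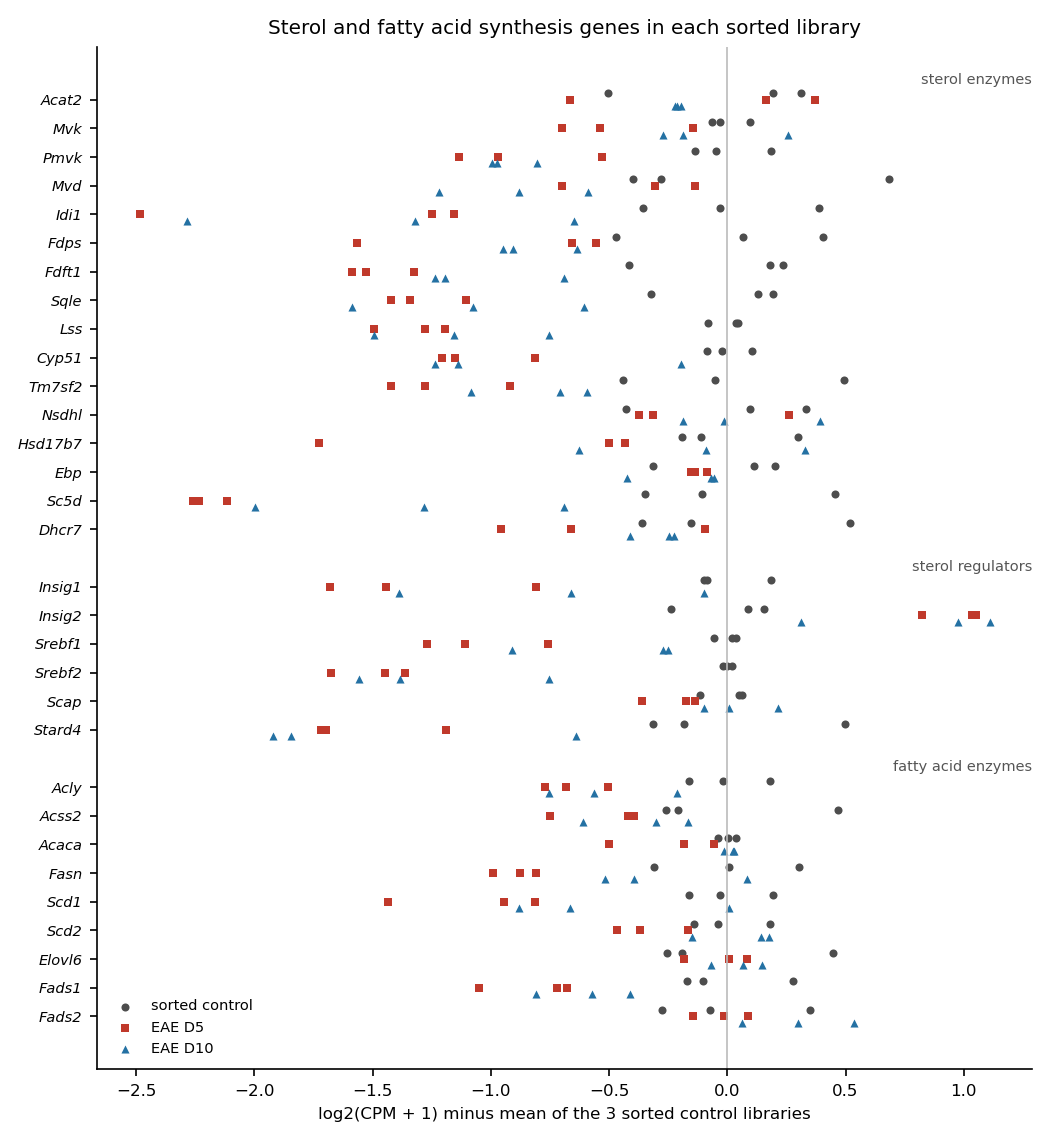
Level of 31 sterol and fatty acid synthesis genes in each sorted library, as log2(CPM + 1) minus the mean of the 3 sorted control libraries (horizontal axis), by gene (vertical axis). Circles are sorted control, squares EAE D5 and triangles EAE D10, with 3 libraries each. Most D5 points of the sterol enzymes lie left of the controls, with Sc5d the lowest on average, and Insig2 lies to the right.

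The early sterol pathway, from acetyl-CoA to farnesyl diphosphate, comprised Acat2, Hmgcs1, Mvk, Pmvk, Mvd, Idi1 and Fdps. Pmvk, which phosphorylates mevalonate phosphate, averaged 9.65 ± 2.40 CPM at D5 and 18.3 ± 2.25 CPM in sorted control (SD, n = 3 each), a log2 fold change of -0.91 ± 0.24 (SE) with an edgeR adjusted p of 0.016. Pmvk and Idi1 were the 2 of these genes called at D5. Idi1, which interconverts the isoprenoid diphosphates, had 12.1, 6.82 and 8.81 CPM in sorted control, 3.22, 3.49 and 0.790 CPM at D5 and 3.01, 5.39 and 1.06 CPM at D10. Both EAE groups lay wholly below the controls, and replicate 3 was the lowest library at each EAE stage.

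The log2 fold change of Idi1 was -1.79 ± 0.58 at D5 (edgeR adjusted p = 0.041) and -1.48 ± 0.57 at D10 (adjusted p = 0.109, not called). Its D5 call rests on few counts. It was lost when any 1 of D5 replicates 1, 2 or 3, control replicate 1 or 4 or D10 replicate 1 was left out, with adjusted p-values of up to 0.132. The call of Pmvk was lost without D5 replicate 1 or 3 (adjusted p = 0.065 and 0.080). Mvk, Mvd and Fdps had negative D5 estimates of -0.48, -0.51 and -1.02 that were not called, and Acat2 had -0.03 with a 95% interval from -1.01 to 0.96.

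Of 10 measured enzymes from squalene synthase on, 6 were called lower at D5, as were 2 of 6 measured earlier enzymes and 10.7% of all genes. All 16 estimates were negative. Counts summed over the 11 libraries ran from 836 to 4158 in the later enzymes and from 557 to 1411 in the earlier ones. A call is harder to reach at low counts, so these numbers do not show that the later part fell by more. Fdft1, squalene synthase, had 43.5, 41.8 and 27.3 CPM in sorted control, 14.1, 12.1 and 11.6 at D5 and 15.1, 22.4 and 15.5 at D10. Sqle, which oxidises squalene in a rate-limiting step, had 38.9, 28.2 and 40.8 CPM in sorted control, 16.0, 13.4 and 12.6 at D5 and 11.2, 23.0 and 16.3 at D10. Lss, which closes the squalene epoxide into lanosterol, had 18.004, 17.9 and 16.4 CPM in sorted control, 7.03, 6.58 and 5.53 at D5 and 7.25, 9.91 and 5.52 at D10. In all 3 genes no library of either EAE group reached the lowest control.

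At D5 the log2 fold changes were -1.56 ± 0.23 for Fdft1, -1.35 ± 0.26 for Sqle and -1.42 ± 0.27 for Lss, with edgeR adjusted p-values of 0.00066, 0.0028 and 0.0027. At D10 they were -1.07 ± 0.23, -1.08 ± 0.25 and -1.18 ± 0.26, with edgeR adjusted p-values of 0.0094, 0.015 and 0.012. Fdft1 was called at D10 under all 14 alternatives. With single libraries left out, the D10 call of Lss was lost without D10 replicate 3 (adjusted p = 0.052), and that of Sqle without D10 replicate 3 (0.054) or control replicate 4 (0.059).

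Sc5d, the sterol desaturase near the end of the pathway, showed the largest D5 fall of the 31 genes. It had 23.1, 34.7 and 19.4 CPM in sorted control, 4.53, 4.43 and 5.00 at D5 and 9.70, 15.1 and 5.52 at D10. The D5 libraries lay within 1 CPM of each other and far below every control, while the D10 libraries spread between the 2 groups. The log2 fold change was -2.41 ± 0.35 at D5, a fitted level 5.33-fold higher in sorted control (edgeR adjusted p = 0.00055), and -1.32 ± 0.33 at D10 (adjusted p = 0.021). The D10 call was lost without control replicate 3 (0.079) or D10 replicate 1 (0.058) or 3 (0.065).

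Cyp51, which demethylates lanosterol, and Tm7sf2, the sterol reductase that follows it, were called at D5 and not at D10. Cyp51 averaged 20.8 ± 3.33 CPM at D5 and 44.0 ± 3.06 CPM in sorted control (log2 fold change -1.08 ± 0.26, edgeR adjusted p = 0.010). Tm7sf2 averaged 5.06 ± 1.12 CPM at D5 and 13.4 ± 4.73 CPM in sorted control (-1.36 ± 0.33, adjusted p = 0.0099). At D10 their estimates were -0.79 and -0.89 with adjusted p-values of 0.060 and 0.086. A call at D5 and none at D10 does not show a difference between the stages, which was tested separately. Nsdhl, Hsd17b7, Ebp and Dhcr7, of the late demethylation, isomerisation and reduction steps, had D5 estimates from -0.86 for Hsd17b7 to -0.15 for Ebp, none called.

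Promoters of Sc5d, Idi1 and Lss are shown so that enzymes that fell at D5 can be compared in their sequence. They are the 3 sterol enzymes of largest D5 fall that have a window. RefSeq promoter windows (GRCm38.p6, 250 bases before to 50 after the gene start) matched 25 of the 32 genes, with 33 windows in all. The classical SREBP motif TCACNCCAC, the NF-Y box CCAAT and the Sp1 box GGGCGG, the last 2 naming common partners of SREBPs, were searched on both strands. The 150 bases just before the start are printed 5′ to 3′ on the gene's strand, in lower case with NF-Y boxes (CCAAT or ATTGG) and Sp1 boxes (GGGCGG or CCGCCC) in capitals:
Sc5d, chr9:42264301-42264450, minus strand: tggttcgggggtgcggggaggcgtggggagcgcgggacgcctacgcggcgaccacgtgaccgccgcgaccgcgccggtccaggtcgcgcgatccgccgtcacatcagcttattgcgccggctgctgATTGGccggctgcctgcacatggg
Idi1, chr13:8885456-8885605, plus strand: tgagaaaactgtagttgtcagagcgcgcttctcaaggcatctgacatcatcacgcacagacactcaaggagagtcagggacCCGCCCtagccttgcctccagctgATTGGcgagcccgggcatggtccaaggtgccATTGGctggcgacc
Lss, chr10:76531455-76531604, plus strand: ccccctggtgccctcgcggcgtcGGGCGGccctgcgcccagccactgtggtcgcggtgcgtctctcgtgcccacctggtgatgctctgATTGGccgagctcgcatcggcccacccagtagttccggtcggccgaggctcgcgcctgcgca

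The NF-Y box begins 24 bases before the start in Sc5d, 45 and 14 bases before it in Idi1 and 62 bases before it in Lss, each time as ATTGG on the gene's strand. Of the other called sterol enzymes with windows, Cyp51 and Tm7sf2 hold 1 NF-Y box each, and Pmvk holds 1 in the first of its 2 windows and 0 in the other. Measured sterol enzymes not called at D5 hold such boxes too, with 5 in Mvk, 4 in Nsdhl, 3 in Hsd17b7 and 2 each in Mvd and Ebp. Dhcr7 holds 0, 0 and 2 in its windows and Acat2 holds 0. The box thus does not set the called enzymes apart. Over the full windows, CCAAT on either strand was present in 13 of 17 sterol enzyme windows (76.5%), 5 of 10 regulator windows (50%) and 3 of 6 fatty acid enzyme windows (50%), against 37.4% of all 32851 promoters in the table. GGGCGG was present in 14 of 17 (82.4%), 8 of 10 (80.0%) and 3 of 6 (50%), against 35.7% of all promoters. TCACNCCAC was found in 1 of the 33 windows, that of Hmgcs1, against 1.24% of all promoters. Some genes have several windows, so that windows are not independent, and a match describes the letters of the window and no binding site.

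At D5 4 of the 6 regulators fell, against 10.7% of all genes, and 1, Insig2, rose. That 1 rise (16.7%) is near the 13.2% of all genes called higher. Srebf2, which encodes the SREBP that drives the sterol pathway, had 218, 222 and 216 CPM in sorted control, 79.6, 84.3 and 67.6 at D5 and 83.2, 129 and 73.7 at D10. Its controls lay within 7 CPM of each other, and its highest EAE library, D10 replicate 2, was still far below them. The log2 fold change was -1.50 ± 0.19 at D5 (edgeR adjusted p = 0.00023) and -1.19 ± 0.19 at D10 (adjusted p = 0.0022), called under all 14 alternatives at both stages.

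Srebf1, which encodes the SREBP isoforms tied most to fatty acid synthesis, had 206, 193 and 204 CPM in sorted control, 92.7, 118 and 82.9 at D5 and 166, 169 and 106 at D10. D10 replicates 1 and 2 stood near the controls and replicate 3 stood among the D5 libraries. The log2 fold change was -1.04 ± 0.19 at D5 (edgeR adjusted p = 0.0021) and -0.45 ± 0.19 at D10 (adjusted p = 0.134). The ratio of Srebf2 to Srebf1 counts, in which gene length is the same in every library, was 1.06, 1.15 and 1.06 in sorted control, 0.859, 0.712 and 0.816 at D5 and 0.501, 0.765 and 0.693 at D10. It was below 1 in all 6 EAE libraries and above 1 in all 3 controls.

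The paralogues Insig1 and Insig2 went opposite ways. Insig1, itself a known SREBP target, had 60.99, 49.99 and 50.5 CPM in sorted control, 30.2, 19.1 and 16.1 at D5 and 33.6, 49.9 and 19.9 at D10. Insig2, whose transcription is known to depend less on SREBPs, had 13.5, 17.1 and 17.998 CPM in sorted control, 34.4, 34.0 and 29.2 at D5 and 20.2, 32.6 and 35.8 at D10. All 6 EAE libraries lay above every control for Insig2 and below every control for Insig1, although for Insig1 D10 replicate 2 was within 0.1 CPM of the lowest control.

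Insig1 fell by 1.29 ± 0.30 on the log2 scale at D5 (edgeR adjusted p = 0.0085), and its D10 estimate was -0.64 ± 0.30 (adjusted p = 0.183). Insig2 rose by 0.99 ± 0.22 at D5 (edgeR adjusted p = 0.0068) and by 0.86 ± 0.22 at D10 (adjusted p = 0.024). The D10 call of Insig2 was lost without D10 replicate 2 (0.067), D10 replicate 3 (0.113) or control replicate 1 (0.080). The ratio of Insig2 to Insig1 counts was 0.221, 0.343 and 0.357 in sorted control, 1.14, 1.78 and 1.82 at D5 and 0.601, 0.653 and 1.80 at D10. D10 replicate 3 again matched the D5 range, and the other D10 libraries lay between D5 and control.

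**Figure D2:**
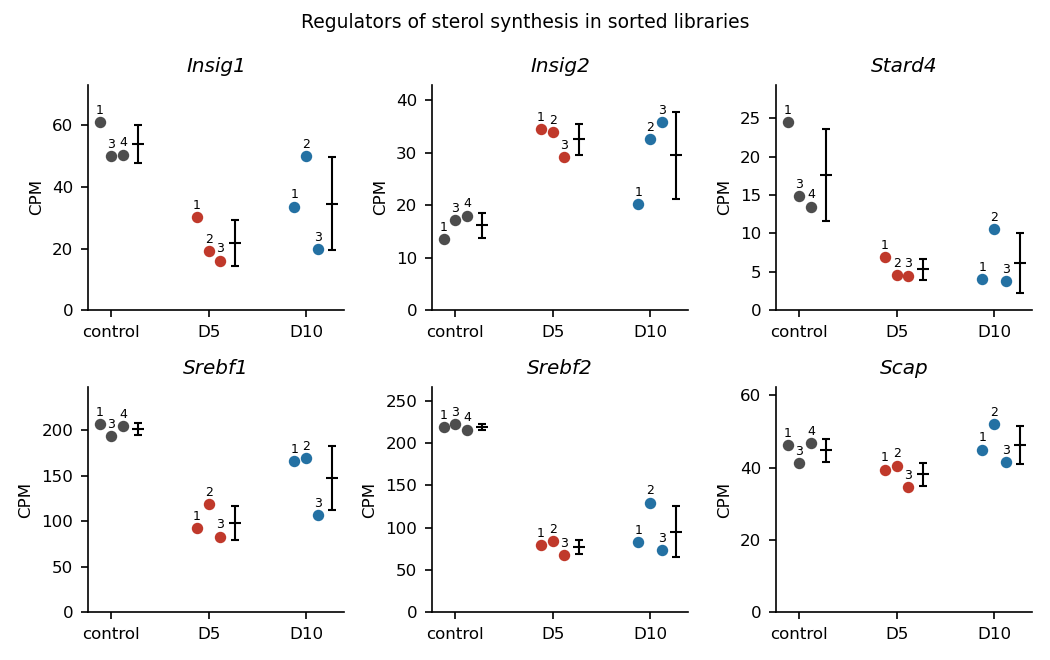
CPM of the 6 sterol regulators (vertical axes, from 0) in the 9 sorted libraries, by group (horizontal axes). Points are libraries with their replicate number, and the bar beside each group is the mean ± SD (n = 3). Srebf2 stays between 67.6 and 129 CPM in the EAE libraries, and Insig2 is the one regulator whose EAE libraries all lie above the controls.

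Stard4, a carrier of cholesterol between membranes, had 24.5, 14.9 and 13.5 CPM in sorted control, 6.91, 4.57 and 4.47 at D5 and 4.01, 10.6 and 3.76 at D10, with no overlap between EAE and control. Its log2 fold change was -1.68 ± 0.41 at D5 (edgeR adjusted p = 0.011) and -1.48 ± 0.40 at D10 (adjusted p = 0.030). The D5 call was lost narrowly without D5 replicate 3 (0.0501), and the D10 call without control replicate 1 (0.112) or D10 replicate 1 (0.095) or 3 (0.112). Scap had 46.3, 41.2 and 46.7 CPM in sorted control, 39.5, 40.5 and 34.6 at D5 and 44.9, 52.0 and 41.6 at D10. Its estimates were -0.23 at D5 (95% interval -0.55 to 0.10) and 0.05 at D10 (-0.27 to 0.37), neither called.

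Promoter windows of Srebf2, Insig1 and Insig2, which changed in opposite directions, are printed in the same way, 150 bases for Srebf2 and Insig2 and 250 bases for Insig1, whose NF-Y box lies farther out. For Insig2, which has 3 windows in the table, the one that holds NF-Y boxes is shown:
Srebf2, chr15:82147119-82147268, plus strand: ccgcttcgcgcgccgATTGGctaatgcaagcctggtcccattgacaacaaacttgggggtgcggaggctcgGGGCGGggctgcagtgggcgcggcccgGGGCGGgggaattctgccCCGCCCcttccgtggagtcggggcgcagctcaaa
Insig1, chr5:28071162-28071411, plus strand: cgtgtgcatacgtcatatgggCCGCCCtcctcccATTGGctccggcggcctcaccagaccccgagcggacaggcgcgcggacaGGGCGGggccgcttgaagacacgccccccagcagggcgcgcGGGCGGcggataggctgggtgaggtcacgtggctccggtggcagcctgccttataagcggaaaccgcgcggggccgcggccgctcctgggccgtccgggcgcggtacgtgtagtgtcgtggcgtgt
Insig2, chr1:121332590-121332739, minus strand: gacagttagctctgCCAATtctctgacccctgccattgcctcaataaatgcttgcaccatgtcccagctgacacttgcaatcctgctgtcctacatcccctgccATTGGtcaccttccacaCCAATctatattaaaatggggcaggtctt
The printed bases of Srebf2 and Insig1, which fell, each hold 3 Sp1 boxes and 1 NF-Y box, in stretches of unlike length. Over the full windows Srebf2 holds 5 Sp1 boxes and Insig1 holds 3. The Insig2 window shown, picked because it holds NF-Y boxes, has 3 of them and no Sp1 box. The other 2 Insig2 windows hold 1 Sp1 box each and no NF-Y box. Srebf1, which also fell, has windows with 2, 3 and 0 Sp1 boxes and 1, 0 and 1 NF-Y boxes. Because the stretches were picked in this way, no contrast between genes that fell and rose can be read from them.

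In the fatty acid arm, the called genes at D5 were Acly, Fasn, Scd1 and Fads1. Fasn, which builds palmitate, had 356, 232 and 290.1 CPM in sorted control, 157, 164 and 145 at D5 and 219, 306 and 201 at D10. Every D5 library was below every control, and at D10 replicate 2 lay inside the control range. Scd1, the second stearoyl-CoA desaturase, had 172, 147 and 134 CPM in sorted control, 77.5, 85.0 and 54.9 at D5 and 94.5, 151 and 81.2 at D10, with the same layout.

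At D5, Fasn fell by 0.92 ± 0.19 and Scd1 by 1.06 ± 0.23 on the log2 scale (edgeR adjusted p = 0.0041 and 0.0057). Acly, which makes cytosolic acetyl-CoA from citrate for both arms, averaged 81.0 ± 7.70 CPM at D5 and 128 ± 15.7 CPM in sorted control (log2 fold change -0.66 ± 0.16, edgeR adjusted p = 0.011). Its call was lost without D5 replicate 3 (0.058). Fads1, a desaturase of polyunsaturated fatty acids, averaged 56.1 ± 7.71 CPM at D5 and 99.8 ± 17.6 CPM in sorted control (-0.83 ± 0.17, adjusted p = 0.0043).

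The other 5 fatty acid enzymes were not called at D5. Acaca, which makes malonyl-CoA, had 33.7 to 46.2 CPM at D5 and 46.8 to 49.3 CPM in sorted control, a log2 fold change of -0.24 with a 95% interval from -0.56 to 0.08. Scd2 had 337 to 415 CPM at D5 and 422 to 528 CPM in sorted control (-0.34, -0.65 to -0.02, adjusted p = 0.117). Elovl6, which elongates palmitate, had -0.07 (-0.52 to 0.39), and Fads2, a desaturase that acts before Fads1, had -0.05 (-0.48 to 0.39). Acss2, which makes acetyl-CoA from acetate, had -0.61 (-1.29 to 0.07). Scd1 and Scd2 are close paralogues, and how reads matching both were counted was not given, so their levels may be affected.

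At D10 against the same 3 control libraries, 5 of 16 sterol enzymes fell (Pmvk, Fdft1, Sqle, Lss and Sc5d), 2 of 6 regulators fell (Srebf2 and Stard4), 1 rose (Insig2), and 1 of 9 fatty acid enzymes fell (Fads1). Over all genes 4.99% were called lower and 8.38% higher. Median log2 fold changes were -0.94 for the sterol enzymes, -0.54 for the regulators, -0.27 for the fatty acid enzymes and 0.01 for all genes tested. All D10 libraries lay below all controls in 10 sterol enzymes, 4 regulators and 2 fatty acid enzymes, against 14.1% of all genes, and above them in 1 regulator, against 17% of all genes. Of the fatty acid estimates 5 were negative and 4 positive, between -0.61 for Fads1 and 0.30 for Fads2. Because D5 and D10 were set against the same controls, their values are given side by side and are not independent.

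The D10 counts depend on single libraries. Without D10 replicate 3 the count of called sterol enzymes was 1, without control replicate 3 it was 3, and over all left-out libraries it ran from 1 to 6. The count of regulators that fell ran from 1 to 3 and that of fatty acid enzymes from 0 to 3, both highest without D10 replicate 2. Without that library Cyp51 (log2 fold change -1.22, edgeR adjusted p = 0.0027), Insig1 (-1.002, 0.042), Acly (-0.67, 0.021) and Scd1 (-0.78, 0.025) were called. The D10 call of Fads1 (main value -0.61 ± 0.17, edgeR adjusted p = 0.034) was lost without D10 replicate 1 (0.068), D10 replicate 3 (0.119), control replicate 3 (0.114) or D5 replicate 2 (0.0504). Pmvk, at 9.17 ± 0.754 CPM in D10 and 18.3 ± 2.25 CPM in sorted control, had an edgeR adjusted p of 0.019 that was lost without D10 replicate 3 (0.065) or control replicate 3 (0.058).

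**Figure D3:**
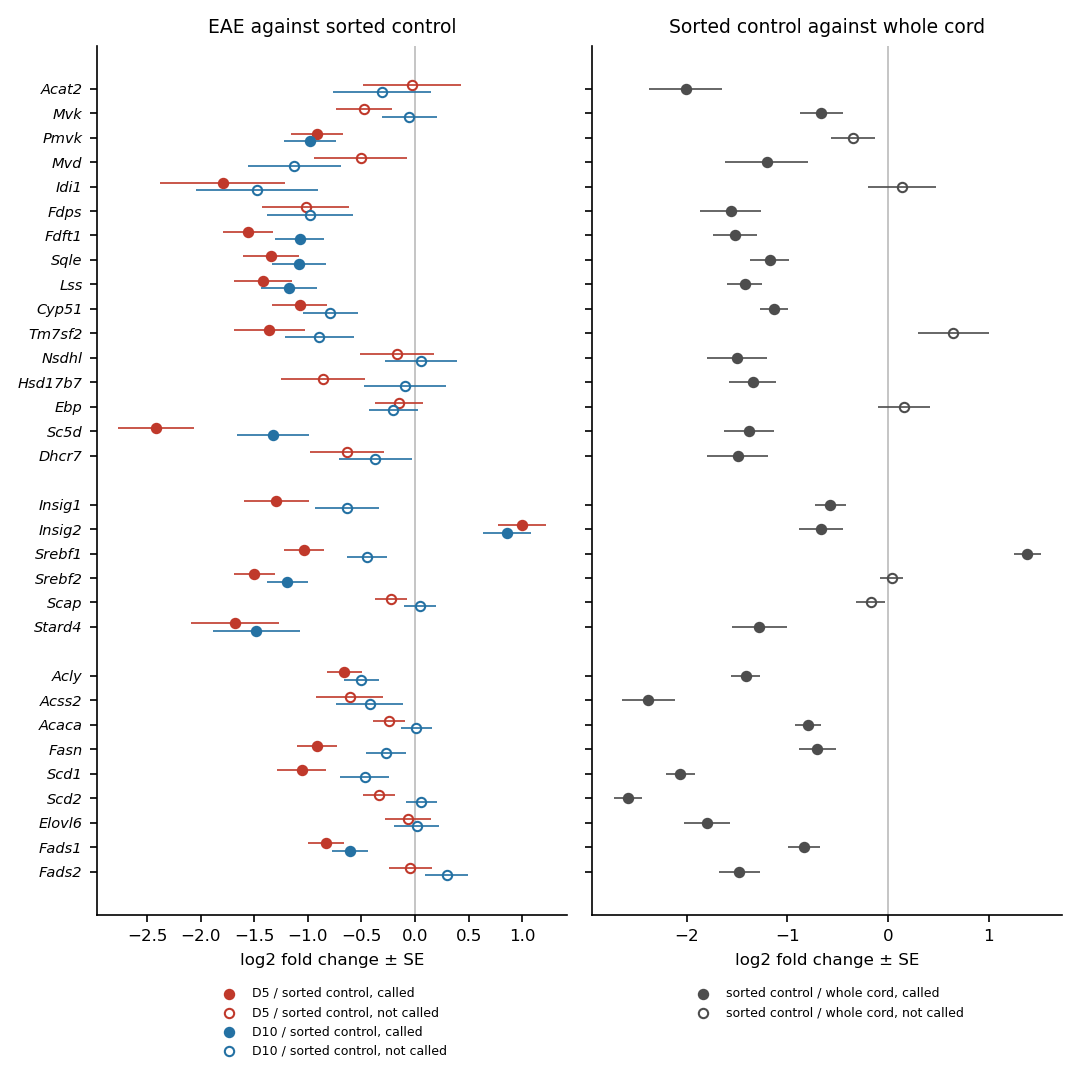
Log2 fold change ± SE (horizontal axes) of 31 genes (vertical axis; sterol enzymes above, regulators in the middle, fatty acid enzymes below). Left, EAE D5 and EAE D10 over sorted control; right, sorted control over whole cord. Filled points were called by edgeR at an adjusted p under 0.05. Sterol enzyme estimates are mostly negative in both panels, and all 9 fatty acid enzymes are called lower on the right.

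The 3 D10 libraries differed among themselves in the same direction across most of the 31 genes. Replicate 2 was the highest D10 library in 24 of 31 genes, against 32.9% of all genes tested, comprising 13 of 16 sterol enzymes, 5 of 6 regulators and 6 of 9 fatty acid enzymes. Replicate 3 was the lowest in 20 of 31, against 34.4% of all genes. D10 replicate 2 was at or above the lowest control in 14 of the 31 genes, replicate 1 in 10 and replicate 3 in 9. Over all genes tested these shares were 73.6%, 72.6% and 68.8%.

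Between D10 and D5 themselves, none of the 31 genes was called by edgeR or by DESeq2, while 6 had an unadjusted p under 0.05 (8.47% of all genes did). Over all genes 0.0563% were called lower and 0.0751% higher. Of the 31 estimates 26 were positive, with medians of 0.26 for sterol enzymes, 0.29 for regulators, 0.25 for fatty acid enzymes and 0.01 for all genes. The largest was that of Sc5d, with 10.1 ± 4.80 CPM at D10 and 4.65 ± 0.305 CPM at D5 (log2 fold change 1.09 ± 0.35, edgeR adjusted p = 0.380). Fasn had 242 ± 55.8 CPM at D10 and 155 ± 9.87 CPM at D5 (0.64 ± 0.19, adjusted p = 0.299), with no overlap between the stages. Srebf1 (0.59 ± 0.19, edgeR adjusted p = 0.380) was called without D10 replicate 3 (0.78, 0.037). The sterol enzyme median was -0.0079 without D10 replicate 2, so its sign rests on that library.

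The 2 arms were also set side by side within each library, as the mean over genes of log2(CPM + 1) relative to the sorted control mean. For the 16 sterol enzymes this mean was 0.0130, 0.0292 and -0.0422 in sorted control, -0.891, -0.748 and -1.10 at D5 and -0.764, -0.409 and -0.913 at D10. For the 9 fatty acid enzymes it was -0.0113, 0.131 and -0.120 in sorted control, -0.567, -0.392 and -0.570 at D5 and -0.191, -0.0639 and -0.357 at D10. The sterol mean was the lower of the 2 in all 6 EAE libraries, by 0.324, 0.356 and 0.530 at D5 and by 0.573, 0.345 and 0.556 at D10. In sorted control the sterol mean minus the fatty acid mean was 0.0243, -0.102 and 0.0776. These are descriptions of chosen genes with different levels and no test of the arms was made; the added 1 CPM understates changes of low genes, which are more frequent in the sterol arm.

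**Figure D4:**
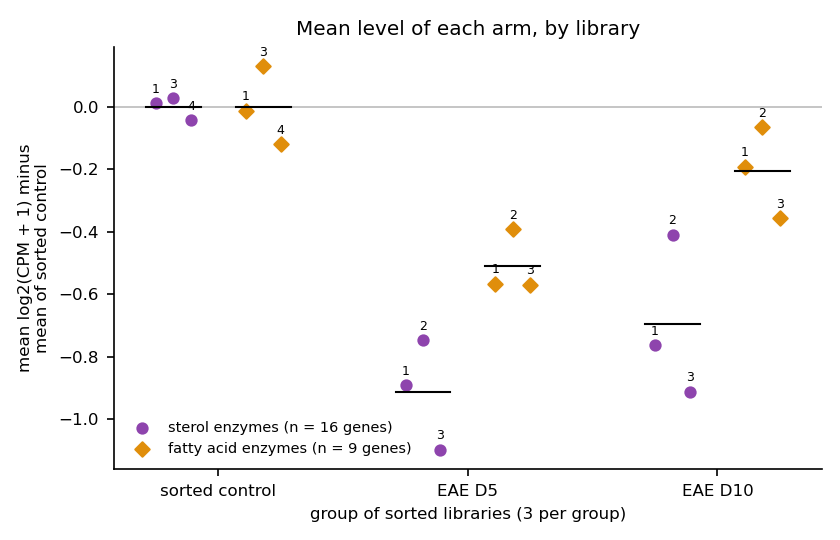
Mean of log2(CPM + 1) minus the sorted control mean (vertical axis) over 16 sterol enzymes (circles) and 9 fatty acid enzymes (diamonds) in each library, by group (horizontal axis). Numbers are replicates and lines are group means. In each EAE library the sterol mean lies below the fatty acid mean, and D10 replicate 2 is the EAE library nearest to the controls in both arms.

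Other measured features moved with the groups. All 10 G2/M cell cycle genes were called higher at D5, where their summed level was 417 to 433 CPM against 38.4 to 77.4 CPM in sorted control. Ccnb1 was at 0 in every control and passed the expression filter only through EAE libraries. In the healthy fit 6 of the 10 passed, so the count of calls is no test of the list. At D10 the sum was 156, 136 and 304 CPM in replicates 1, 2 and 3, and 7 of the 10 genes were called higher. The summed level of 7 leukocyte and T cell markers was 5.94 to 19.4 CPM in sorted control, 126 to 254 CPM at D5 and 74.8 to 128 CPM at D10. All 7 were called higher at both stages. Trac was at 0 in every control and passed the expression filter only through EAE libraries. In the healthy fit 5 of the 7 passed. The filter thus favoured higher calls, and these counts are no test of the list. The summed level of 8 macrophage and microglia markers was 17.1 to 34.7 CPM in sorted control, 41.1 to 62.9 CPM at D5 and 56.4 to 114 CPM at D10, with 4 called higher at D5 and 5 at D10. That of 7 endothelial markers was 230 to 271 CPM in sorted control, 436 to 520 CPM at D5 and 398 to 448 CPM at D10, with 1 called higher at each stage. That of 7 mural cell markers was 2880 to 5348 CPM in sorted control, 2614 to 4072 CPM at D5 and 1299 to 2436 CPM at D10. At D5 2 mural markers were called higher and 2 lower, and at D10 3 were called lower. Over all genes 10.7% were called lower and 13.2% higher at D5, and 4.99% and 8.38% at D10. The 1 endothelial call at D5 (14.3% of its list) is near that share. The sum of 10 immediate early and stress genes that tissue dissociation is known to raise was 5744 to 11617 CPM at D5 and 11785 to 20907 CPM in sorted control, with 3 of 10 called lower. At D10 it was 17023, 19075 and 6427 CPM in replicates 1, 2 and 3. D10 replicate 3, the lowest D10 library in most synthesis genes, was also lowest in this sum and highest in G2/M genes. The other groups differed from this. Control replicate 3 had the lowest control sum (11785 CPM) and the highest control means of the sterol and fatty acid enzymes (0.0292 and 0.131). D5 replicate 2 had the lowest D5 sum (5744 CPM) and the highest D5 means (-0.748 and -0.392). The part of cycling, other cells or dissociation in the results was not tested. In sorted bulk samples, fewer cells of a type and less RNA per cell cannot be told apart.

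Neighbouring pathway genes from further lists give the setting. Of 8 measured genes of sterol synthesis and uptake outside the 32, 5 fell and none rose at D5. Over all genes 10.7% were called lower and 13.2% higher. Sc4mol, the sterol demethylase now named Msmo1, fell by 1.32 ± 0.24 (edgeR adjusted p = 0.0022). At D10 Sc4mol was also called (-1.01, adjusted p = 0.015).

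Of 10 genes of sterol efflux and of the liver X receptors (LXRs), which sense oxysterols, 4 rose and 2 fell at each stage. Over all genes 13.2% were called higher and 10.7% lower at D5, and 8.38% and 4.99% at D10. Abca1, which exports cholesterol to apolipoproteins, averaged 585 ± 70.1 CPM at D5 and 136 ± 10.3 CPM in sorted control (log2 fold change 2.11 ± 0.21, edgeR adjusted p = 6.6e-05), and 687 ± 215 CPM at D10 (2.34 ± 0.21, adjusted p = 9.5e-05). Abcg1, a second exporter, averaged 7.75 ± 3.18 CPM in sorted control, 38.5 ± 7.67 CPM at D5 and 44.0 ± 14.6 CPM at D10, with log2 fold changes over control of 2.28 at D5 and 2.47 at D10. Cyp27a1, which makes an oxysterol in mitochondria, fell by 2.10 ± 0.34 at D5 (edgeR adjusted p = 0.00092). At D10 Ch25h, which makes another oxysterol, rose by 1.72 ± 0.41 (adjusted p = 0.016). The genes that rose thus included exporters and, at D10, the enzyme gene Ch25h. The falls of the list included the enzyme gene Cyp27a1 and the receptor gene Nr1h3. Nr1h3 had -0.67 ± 0.20 at D5 (edgeR adjusted p = 0.026) and -0.85 at D10 (edgeR adjusted p = 0.015).

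Of 16 measured further genes of fatty acid synthesis, 6 fell and 2 rose at D5. Over all genes 10.7% were called lower and 13.2% higher, so the 2 rises (12.5%) are near that share. Mlxipl, the glucose-sensing lipogenic factor ChREBP, averaged 0.866 ± 0.698 CPM at D5 and 14.1 ± 5.15 CPM in sorted control (log2 fold change -3.70 ± 0.87, edgeR adjusted p = 0.0086). Acacb, which makes malonyl-CoA at mitochondria, fell by 1.31 ± 0.27 (edgeR adjusted p = 0.0044), and Elovl5, an elongase of polyunsaturated chains, fell by 1.29 ± 0.20 (adjusted p = 0.00076). At D10 Acacb (-1.07) and Elovl5 (-0.87) were called lower and Mlxip, a relative of Mlxipl, was called higher (0.87 ± 0.19, adjusted p = 0.011). Of 13 genes of fatty acid activation and glycerolipid synthesis, 4 fell and 3 rose at D5, beside the same shares of all genes. Acsl4, an acyl-CoA synthetase that prefers arachidonate, was higher at D5 (88.4 ± 20.7 CPM against 29.6 ± 8.35 CPM in sorted control, log2 fold change 1.57 ± 0.29, edgeR adjusted p = 0.0021), and Acsl3 was lower (-1.18 ± 0.26, adjusted p = 0.0064). Of 15 measured genes of fatty acid oxidation 2 were called lower at D5, of 7 genes of the isoprenoid branches 1 (Pdss1, -1.01), and of 9 genes of SREBP processing and turnover 1 (Fbxw7, -0.89). These few calls stand against 10.7% of all genes called lower and are not a result about these lists.

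In health, sorted Col1a1 GFP cells had lower levels of most synthesis genes than whole cord, and here the fatty acid arm differed by more. In a separate fit of 5 libraries with 16562 genes tested, 12 of 16 sterol enzymes, 3 of 6 regulators and all 9 fatty acid enzymes were called lower, 1 regulator was called higher, and 28.7% of all genes were called lower and 26.9% higher. Median log2 fold changes of sorted control over whole cord were -1.28 for sterol enzymes, -0.37 for regulators, -1.48 for fatty acid enzymes and 0.04 for all genes. The sterol mean minus the fatty acid mean of log2(CPM + 1), relative to whole cord, was 0.612, 0.487 and 0.665 in the sorted control libraries and 0.0137 and -0.0137 in whole cord.

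Scd2 had 398, 491 and 429 CPM in sorted control and 2816 and 2460 CPM in whole cord, a log2 fold change of -2.59 ± 0.14 (edgeR adjusted p = 6.9e-06). Acss2 had 7.61, 12.6 and 7.34 CPM in sorted control and 48.4 and 49.4 CPM in whole cord (-2.39 ± 0.26, adjusted p = 0.00019). Scd1 had 162, 137 and 127 CPM in sorted control and 632 and 555 CPM in whole cord (-2.06 ± 0.15, adjusted p = 2.1e-05). Each of these was lower in every sorted library, and the mean of Scd2 was 6.00-fold higher in whole cord.

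Elovl6 had 19.2, 31.5 and 20.3 CPM in sorted control and 84.3 and 81.9 CPM in whole cord (-1.80 ± 0.23, edgeR adjusted p = 0.00038). Of the sterol enzymes the largest differences were those of Acat2, the thiolase of the first step, with 2.19, 4.52 and 4.17 CPM in sorted control and 16.7 and 13.99 CPM in whole cord (-2.01 ± 0.36, adjusted p = 0.0024), and of Fdps, farnesyl diphosphate synthase, with 5.30, 10.4 and 8.15 CPM in sorted control and 25.0 and 22.9 CPM in whole cord (-1.56 ± 0.30, adjusted p = 0.0034). Acat2 was thus among the most different sterol enzymes here. Its estimate in D5 over sorted control, -0.03, rested on few counts and ran from -0.28 to 0.27 with single libraries left out. That estimate does not show an unchanged level. Pmvk, Idi1, Tm7sf2 and Ebp were the sterol enzymes not called, with estimates of -0.35, 0.14, 0.65 and 0.16.

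Srebf1 was the one gene of the 31 called higher in the sorted cells. It had 194, 179.7 and 193 CPM in sorted control and 67.0 and 77.4 CPM in whole cord, a log2 fold change of 1.38 ± 0.13 (edgeR adjusted p = 9.9e-05). Srebf2 had 205, 206 and 204 CPM in sorted control and 204 and 197 CPM in whole cord (0.04, 95% interval -0.23 to 0.30), and its sign changed with the scaling. The ratio of Srebf2 to Srebf1 counts was 1.06 to 1.15 in sorted control and 3.04 and 2.54 in whole cord. Insig1 (-0.57 ± 0.15), Insig2 (-0.67 ± 0.22) and Stard4 (-1.28 ± 0.27) were lower in sorted control, with edgeR adjusted p-values of 0.015, 0.033 and 0.0055. Without either whole cord library the calls of Insig1 and Insig2 were lost (adjusted p of up to 0.121 and 0.210), as were those of Mvk and Mvd (up to 0.191 and 0.224). The Fasn call was lost without whole cord replicate 1 (0.052) or control replicate 4 (0.058).

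The summed level of 12 oligodendrocyte markers was 91.9 to 141 CPM in sorted control and 17425 to 19281 CPM in whole cord, with Opalin at 0 in sorted control. The sum of 8 neuronal markers was 5.88 to 21.6 CPM in sorted control and 7398 to 8433 CPM in whole cord, and that of 8 astrocyte markers 575 to 611 CPM in sorted control and 6525 to 7459 CPM in whole cord. All 8 neuronal markers were called lower in sorted control, whereas 5 of the astrocyte markers were called lower and 2 higher. Over all genes 28.7% were called lower and 26.9% higher in this comparison. The dissociation genes summed to 10967 to 19756 CPM in sorted control and 155 to 170.0 CPM in whole cord. Strain label, pooling, sorting and dissociation differ between these groups together with cell type and cannot be told apart. Among the sorted groups the oligodendrocyte sum was 97.6 to 149 CPM in sorted control, 100.4 to 209 CPM at D5 and 190 to 252 CPM at D10. Of its 9 markers tested, 2 were called higher and 1 lower at D5, and 3 higher and 0 lower at D10. Over all genes 13.2% were called higher and 10.7% lower at D5, and 8.38% and 4.99% at D10.

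Outside the 32 genes, the same contrast gave 4 lower and 2 higher of 8 other sterol synthesis and uptake genes, with Sc4mol at -1.79 and Mylip, a ubiquitin ligase, at 2.55. Over all genes 28.7% were called lower and 26.9% higher, so the 2 higher genes (25%) are near that share. Of 10 efflux and LXR genes 9 were higher, led by Nr1h3 (3.20), which encodes LXR alpha, and 1, Abcg1, was lower (-3.09). Of 15 fatty acid oxidation genes 7 were higher and 1 was lower, so most called genes of the efflux and oxidation lists ran against the synthesis arms in direction.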

How the data were processed

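The authors deposited raw read counts per gene for 11 libraries in one table, per the file headers. The submitters' processing notes name HTSeq 0.6.1, SAMtools 0.1.19, Bowtie2 2.2.1, TopHat2 2.0.11, DESeq2 and build mm9, without roles. The gene annotation and any strand setting were not given in the sources used here, so reads of overlapping genes cannot be told apart by strand. A row of column totals, equal to the column sums, and 15 further value columns were not used.

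Testing used edgeR 4.0.16 in R 4.3.3 (quasi-likelihood F-test, TMM), after filterByExpr with its defaults. The 9 sorted libraries entered one fit, and sorted control and whole cord entered another of 5. CPM values are TMM-scaled within each fit and SE was derived from the test statistic. P-values were adjusted by Benjamini-Hochberg over all genes tested. P-values rest on a spread per gene estimated over all groups of a fit. In the sorted fit this is the spread between pools, also of the group not compared. In the healthy fit it joins the spread between pools and that between 2 single cords. Levels per kilobase use GENCODE exon unions (GRCm38), for lengths only.

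The script was tested on simulated counts. In a simulated D5 comparison it called 35 of 100 genes raised by a fold of 2 and 6 of 15328 unchanged genes, and in a simulated healthy comparison 18 of 100 and 9 of 15835. Of 100 genes lowered in the simulated D5 comparison (median estimate -1.53 on the log2 scale) it called 45. In the healthy one it called 49 of 100 (median -1.57). A gene not called may thus have changed. Alternatives, run for the 31 genes only, were RLE size factors, no expression filter, the replicate number as a block, each library left out, DESeq2 1.42.0 and all 11 libraries in one fit.

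The genes, lists and tests were chosen with earlier results of these data known. Values in every library are given for the 6 called genes of largest change per comparison, the 6 regulators and called genes against their arm. Sqle, Fasn, Scd1 and other genes beyond that rule were chosen after their values were seen. Other lists give up to 3 called genes of at least 5 CPM. Some genes of these lists are not reported here.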

Additional observations from a re-analysis of the deposited data

How the results depend on the processing

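Of the single-gene values under the alternatives, 414 kept direction and call at D5 over sorted control, 10 lost the call, 2 gained it and 8 uncalled values changed sign. At D10 over sorted control these numbers were 380, 21, 14 and 19, at D10 over D5 they were 422, 0, 1 and 11, and for sorted control over whole cord 283, 20, 1 and 6. The cause of these changes was not tested. Under the alternatives run, no called gene among the 31 changed sign.

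With each library left out in turn, the D5 medians ran from -1.13 to -0.75 for sterol enzymes and from -0.68 to -0.32 for fatty acid enzymes. Uncalled D5 values ran from -0.28 to 0.27 for Acat2, -0.42 to 0.0216 for Nsdhl, -0.20 to 0.19 for Elovl6 and -0.19 to 0.14 for Fads2. At D10 over control the called counts ran from 1 to 6 for sterol enzymes, 1 to 3 for regulators that fell, 0 to 1 for those that rose and 0 to 3 for fatty acid enzymes. The D10 medians ran from -0.98 to -0.69 and from -0.29 to -0.11 for the 2 enzyme arms. Uncalled D10 values ran from -0.25 to 0.0357 for Mvk, -0.15 to 0.25 for Nsdhl, -0.37 to 0.12 for Hsd17b7, -0.0475 to 0.10 for Scap, -0.0105 to 0.0317 for Acaca, -0.0114 to 0.15 for Scd2 and -0.11 to 0.28 for Elovl6.

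At D10 over D5 the sterol enzyme median ran from -0.0079 to 0.39 and the count of regulators called higher from 0 to 1. Single values ran from -0.20 to 0.14 for Pmvk, -0.26 to 0.71 for Idi1, -0.26 to 0.27 for Fdps, -0.0229 to 0.49 for Sqle, -0.14 to 0.48 for Cyp51, -0.11 to 0.0698 for Ebp, -0.29 to 0.0759 for Insig2, -0.43 to 0.45 for Stard4 and -0.000429 to 0.28 for Acly. Over all genes, 137 were called higher and 81 lower at D10 over D5 without D10 replicate 3, against 12 and 9 with it, 1 and 0 without D5 replicate 3, 171 and 94 with no expression filter, 104 and 72 with DESeq2 and 11 and 5 with all 11 libraries. Without D10 replicate 3, D10 over control gave 680 higher and 365 lower, against 1339 and 797 with it. Without D5 replicate 3, D5 over control gave 986 lower, against 1702, and without whole cord replicate 1 the healthy comparison gave 2684 higher and 3289 lower, against 4462 and 4746. For sorted control over whole cord the medians ran from -1.35 to -1.15 and from -1.66 to -1.39, the count of sterol enzymes called higher from 0 to 1 and of regulators called lower from 1 to 3. Idi1 ran from -0.0774 to 0.33 and Srebf2 from -0.0222 to 0.0594. Srebf2 was -0.0179 with RLE size factors, -0.0053 with no filter, -0.0176 with DESeq2 and -0.0011 with all 11 libraries in one fit. DESeq2 and the fit of all 11 libraries each called 2 fatty acid enzymes at D10, and DESeq2 gave a sterol median of -1.35 for sorted control over whole cord.

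Among the sorted groups, correlations of deviations from group means ran from -0.078 to 0.171 between same-numbered libraries. Between libraries of unlike number they ran from -0.187 to 0.153. Deviations within a group sum to 0 and bind these values to each other, so they cannot decide whether replicate numbers pair the samples. Whole cord shares only numbers 1 and 3 with sorted control, where the correlations were -0.033 and -0.042. With 2 whole cord libraries each such value is the opposite of that with the other library, and it cannot decide pairing either. With the number as a replicate block 1655 genes were called higher and 1258 lower at D5 over control, the D5 sterol median was -1.20, the D10 counts were 0 regulators higher and 3 fatty acid enzymes lower, the D10 values of Scd2 and Elovl6 were -0.0412 and -0.0821, and 1 regulator was called lower in sorted control over whole cord. There the block ended the calls of Mvk, Mvd, Insig1 and Insig2 (edgeR adjusted p = 0.091, 0.058, 0.070 and 0.065). With 3 pools a group, low genes such as Idi1, at 6 to 27 counts in D5 libraries, are limited by depth.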

Other observations

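Beyond the 32 genes, a pair of genes of fatty acid activation and glycerolipid synthesis differed between healthy sorted cells and whole cord by more than any of the 31 measured genes. Acsl6, an acyl-CoA synthetase of brain tissue, averaged 3.19 ± 2.13 CPM in sorted control (SD, n = 3) and 288 ± 12.01 CPM in whole cord (n = 2). Its edgeR log2 fold change was -6.45 ± 0.38 (SE), with an adjusted p of 9.0e-06. Lpin3, a phosphatidate phosphatase, averaged 22.1 ± 2.28 CPM in sorted control and 0.939 ± 0.113 CPM in whole cord (4.28 ± 0.30, edgeR adjusted p = 2.0e-05). The ratio of Scd2 to Scd1 counts was 2.46, 3.59 and 3.38 in sorted control, 4.65, 4.89 and 6.13 at D5 and 5.44, 3.49 and 5.17 at D10. In whole cord it was 4.45 and 4.43. It was above every control in all D5 libraries and in 2 of 3 D10 libraries. How reads matching both genes were counted was not given, so this ratio may be affected.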
